A study of Homo sapiens with 2 samples.

Results

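The messenger RNAs of 39 DNA replication and S phase genes were measured in HEK293 cells lacking LARP7 and in their parental cells. The genes were taken from a list of origin licensing, helicase, polymerase and nucleotide supply genes, and all 39 were found by symbol among 31523 genes with reads. HEK293 is a line derived from human embryonic kidney, and LARP7, of the La-related family, protects 7SK, a small RNA that holds back transcription elongation. The study compared total RNA of LARP7 knockout cells, all from clone 1-11, with that of parental cells carrying no such change, in 2 libraries per group, to learn how loss of LARP7 affects expression and splicing. RNA was isolated with TRIzol and libraries were built with the Ovation SoLo kit. The title and genotype fields name the knockout, whereas its source field reads wildtype, and the genotype field was followed. The knockout cells are all of 1 clone, so effects of cloning cannot be told apart from those of LARP7 loss. No source says that replicate libraries were grown separately, so the tests measure a spread that may be technical.

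Replication begins at origins, where the origin recognition complex, CDC6 and CDT1 load the ring-shaped MCM helicase onto DNA before S phase. CDC45 and the GINS complex then join MCM and turn it into an active helicase, primase and polymerase alpha lay down primers, and the PCNA clamp, opened and closed by the RFC loader, tethers polymerases delta and epsilon while FEN1 and LIG1 trim and join the lagging-strand fragments. Ribonucleotide reductase and thymidylate synthase make the deoxynucleotides, and cyclin E with its kinase opens S phase. Many of these genes are known targets of E2F transcription factors and peak as cells enter S phase. In bulk RNA, fewer cells in S phase and less of each RNA per cell cannot be told apart.

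A DNA feature shared by many of the 39 genes, which did not enter their choice, was the E2F-type motif. RefSeq promoter windows of GRCh38.p14, from 250 bases before to 50 bases after the start, were found for 34 of the genes. The motif letters TTTCCCGC, TTTGGCGC, TTTCGCGC or TTTGCCGC, on either strand and with overlaps counted, were present for 17 of the 34 genes (50%), counting a gene if any of its windows matched, and for 3.93% of 27271 other genes counted likewise; of all 35116 windows 3.31% held them. The letters CCAAT, on either strand, were present for 21 of the 34 genes (61.8%), for 39.7% of the other genes and in 34.6% of all windows. A match is a description of the letters and not a mapped binding site. For each promoter the stretch nearest the start that no GENCODE v29 exon covers was taken, of at most 120 bases. Only those of MCM6 and MCM3, subunits of the replicative helicase, and of PCNA, the polymerase clamp, held a match. For some other genes with the letters, such as CDT1, no such stretch was left. The 3 stretches with a match are shown, with capitals marking the E2F-type letters. They lie at chr2:135876444-135876563, minus strand (MCM6), chr6:52284882-52284992, minus strand (MCM3), and chr20:5126627-5126746, minus strand (PCNA), and read from 5′ to 3′:

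MCM6: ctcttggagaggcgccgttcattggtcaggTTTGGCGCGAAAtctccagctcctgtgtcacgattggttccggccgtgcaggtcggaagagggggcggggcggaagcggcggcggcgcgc
MCM3: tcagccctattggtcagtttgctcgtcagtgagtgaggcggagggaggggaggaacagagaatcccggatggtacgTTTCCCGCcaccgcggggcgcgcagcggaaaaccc
PCNA: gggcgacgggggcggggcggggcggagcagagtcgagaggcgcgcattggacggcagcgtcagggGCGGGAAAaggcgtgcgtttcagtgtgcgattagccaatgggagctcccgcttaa

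The MCM6 stretch holds 2 overlapping matches, which begin at -90 and -86 relative to the start. The MCM3 match begins at -174 and the PCNA match at -59. The 17 genes with E2F-type letters had a median log2 fold change (knockout over parental) of -0.03 and the 17 without of -0.06. The 21 genes with CCAAT had a median of -0.03 and the 13 without of -0.21. These medians are descriptions, since the genes share the same 4 libraries.

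The knockout libraries held 16838501 and 16218587 estimated reads and the parental libraries 18483220 and 12851942. LARP7 itself stood at 36.1 and 31.9 CPM (reads per gene, put on 1 scale across libraries with TMM factors) in the knockout and 59.8 and 46.5 CPM in parental cells, a log2 fold change of -0.65 (SE 0.16, edgeR adjusted p = 0.135). Both knockout libraries were below both parental ones, but LARP7 RNA did not pass the threshold of 0.05. All 9 HEK293 and kidney lineage markers were tested, and SALL1 and NEFL were well expressed. Of the 9, NEFM, a neurofilament gene, passed as lower, with 7.76 and 8.58 CPM in the knockout and 49.4 and 73.6 CPM in parental cells (log2 fold change -2.91, edgeR adjusted p = 0.00164). The other 8 did not pass; EYA1, a kidney lineage factor, was at 1.11 (edgeR adjusted p = 0.135). Further, 3 of 8 markers of other cell types (HBB, PECAM1 and KRT5) were at 0 in every library. The other cell type markers summed to 8.17 and 7.57 CPM in the knockout and 6.25 and 8.02 CPM in parental cells. Libraries also differed in fragment length and small RNA: small RNA took 32.0 and 36.3% of TPM (abundance per transcript length, scaled to a fixed total) in the knockout and 37.3 and 53.4% in parental cells.

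None of the 39 replication genes passed edgeR's quasi-likelihood test between knockout and parental cells. All 39 had enough reads to be tested, with 207 to 13262 reads per gene and library. Across all 18484 genes tested, 0.503% were called lower and 0.33% higher in the knockout at a Benjamini-Hochberg adjusted p under 0.05. DESeq2, which called 2.45% of its genes, and limma voom, which called 0.812%, also called 0 of the 39. The smallest edgeR adjusted p among the replication genes was 0.247, for GINS4. At an unadjusted p under 0.05, 5 of the 39 (12.8%) were lower in the knockout, namely GINS4, LIG1, POLD1, TYMS and CDT1, and 0 were higher, against 7.67% lower and 6.58% higher of all genes.

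The replication genes as a group lay within a narrow band around no change. Their log2 fold changes ran from -0.46 (LIG1) to 0.24 (GINS1), with a median of -0.08, where all genes tested had a median of 0.002 and the other protein-coding genes of the same range of levels 0.02 (7226 genes). With TMM scaling the change was negative for 29 of 39 (74.4%) and positive for 10. It was negative for 49.7% of all genes tested and 46.4% of the other protein-coding genes of the same range of levels. When libraries were scaled by their size alone, 19 of the 39 were negative. That scaling moved the median of these genes to 0.01 and that of all genes to 0.10. Both knockout libraries were below both parental ones for 13 genes (33.3%, against 22.7% of all genes) and above them for 1, PRIM2 (2.56%, against 23.5%). The groups overlapped for the other 25.

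The intervals describe the spread between these libraries under TMM scaling. They do not cover the choice of scaling or of transcript length. For MCM10, whose interval in log2 ran from -0.19 to 0.37, an offset for effective transcript length gave a value below it. For all 39 genes the 95% interval of the fold change stayed within 2-fold in either direction, and for 31 it stayed within 1.5-fold. The widest limits were a fold of 0.559 for LIG1 and 1.63 for GINS3. The spread between parental libraries was larger than the difference between the groups for 25 of 39 genes. The median distance between replicates, in log2 CPM, was 0.10 in the knockout and 0.15 in parental cells for these genes, and 0.19 and 0.31 for all genes. For the other protein-coding genes of the same range of levels it was 0.10 in the knockout and 0.20 in parental cells.

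**Figure D1:**
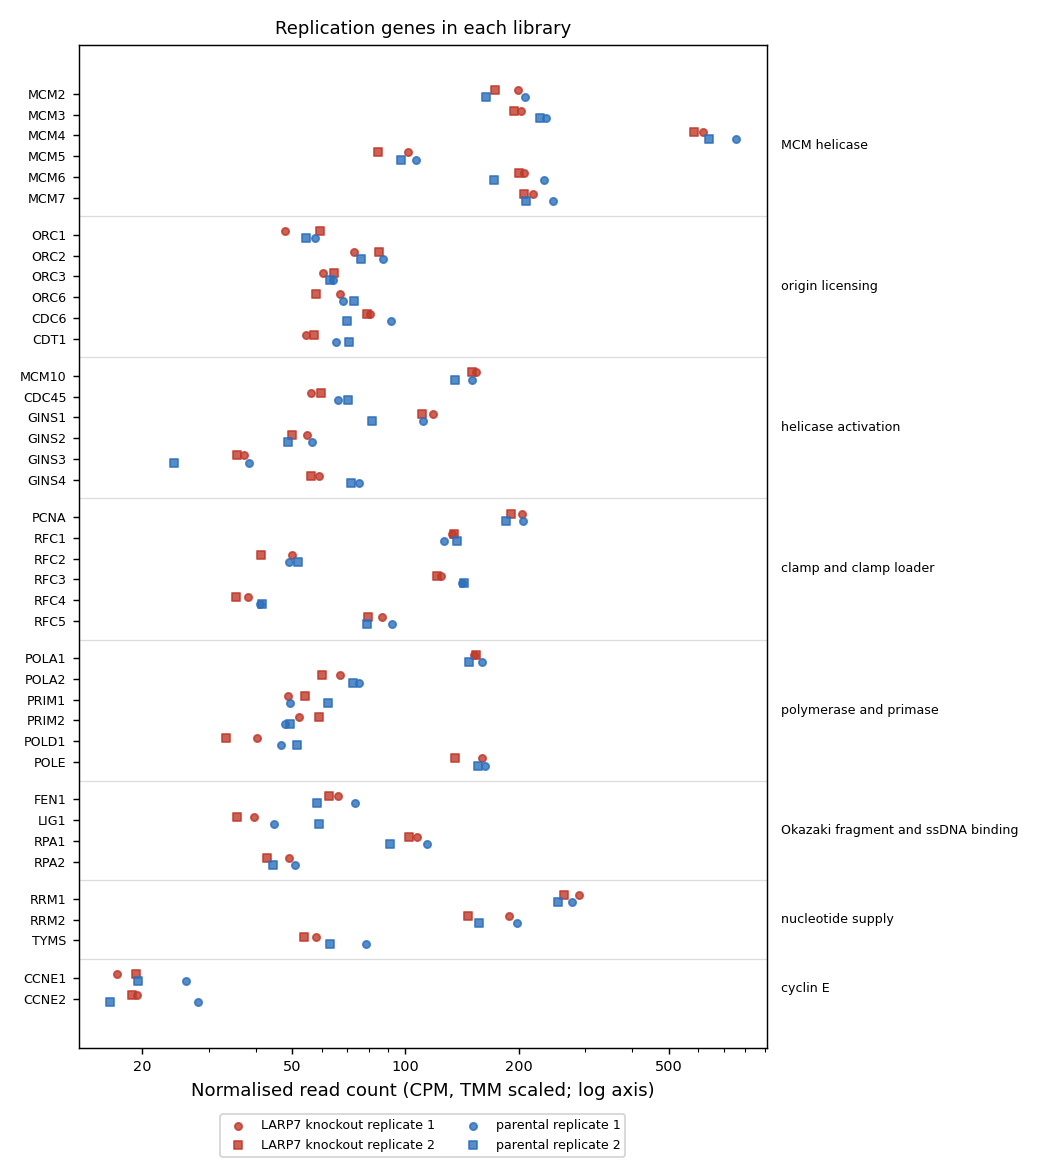
Normalised read count (CPM, log axis) of each replication gene in each library, grouped by role, with LARP7 knockout libraries in red just above parental libraries in blue and circles and squares for replicates 1 and 2. The red and blue points overlap for 25 of 39 genes.

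**Figure D2:**
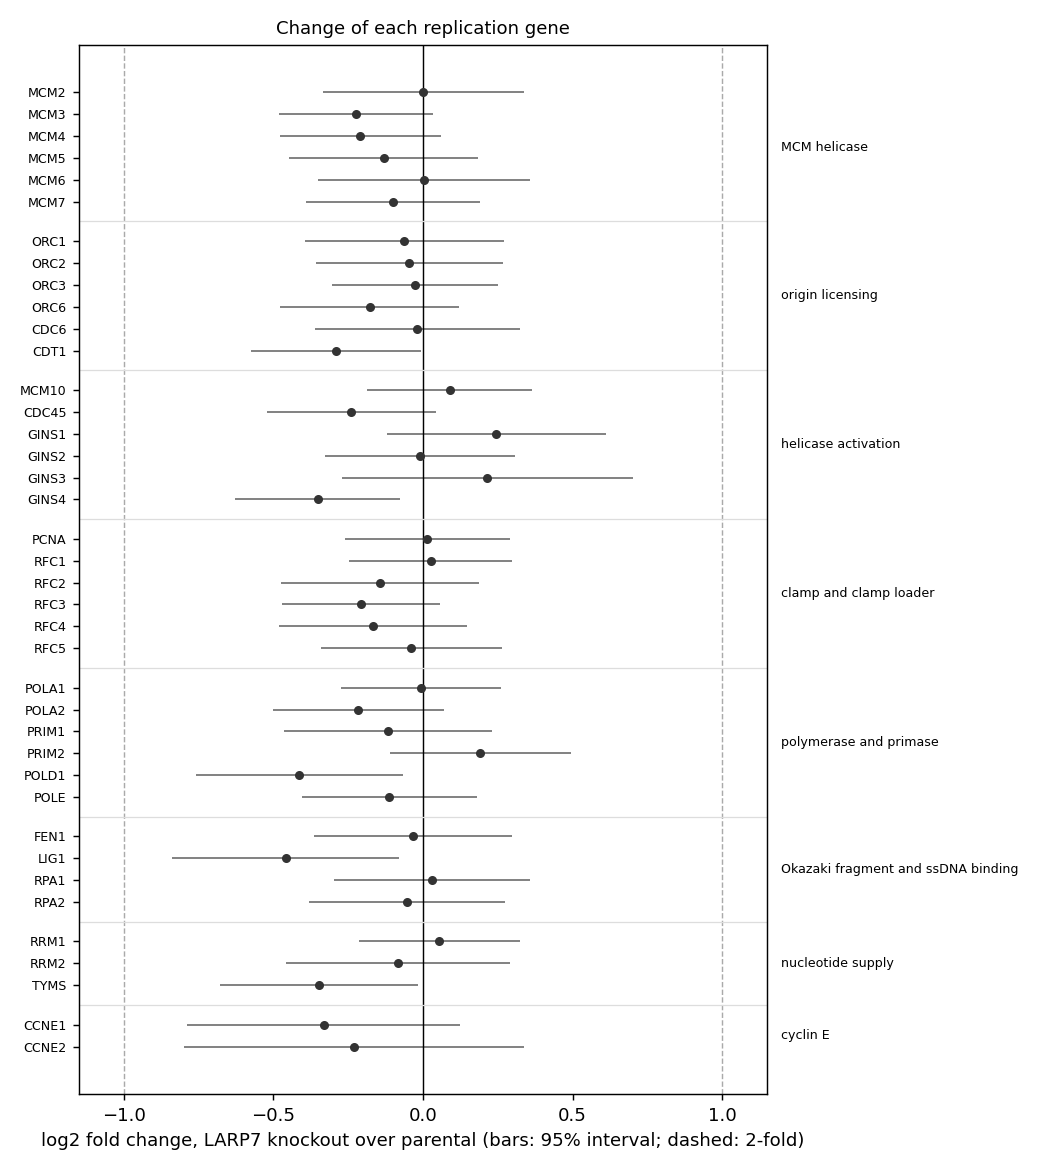
The log2 fold change (LARP7 knockout over parental, TMM scaling) of each replication gene with its 95% interval from the edgeR fit; dashed lines mark 2-fold. All 39 intervals lie between the dashed lines; 29 of the 39 points are below 0, and 19 are when libraries are scaled by size alone.

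The helicase subunits MCM2 to MCM7 did not pass the test, and the groups overlapped for 4 of the 6. MCM3 had 203 and 194 CPM in the knockout and 236 and 228 CPM in parental cells, with a log2 fold change of -0.22 (SE 0.11, edgeR adjusted p = 0.421). Its groups did not overlap. MCM4 had 619 and 586 CPM in the knockout and 754 and 639 CPM in parental cells (-0.21, SE 0.12, adjusted p = 0.470), again without overlap; with an offset for effective transcript length its value was 0.010. MCM7 had 218 and 207 CPM in the knockout and 246 and 209 CPM in parental cells (-0.10, SE 0.13, adjusted p = 0.773). MCM5 had 102 and 84.7 CPM in the knockout and 107 and 97.1 CPM in parental cells (-0.13, or 0.072 with the length offset). MCM2, at 199 and 173 CPM in the knockout and 207 and 164 CPM in parental cells, and MCM6, at 207 and 200 CPM in the knockout and 234 and 172 CPM in parental cells, both had a log2 fold change that rounds to 0. For both, the parental libraries lay on either side of the knockout values. All 6 subunits were lower in replicate 2 than in replicate 1 of each group.

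The MCM ring holds its 6 subunits in equal number, while their RNAs were unequal per transcript length. MCM4 was the highest, at 410 and 349 TPM in the knockout and 338 and 233 TPM in parental cells. It exceeded the lowest subunit, MCM2 or MCM6 depending on the library, 7.55 and 7.40 times in the knockout and 7.22 and 8.07 times in parental cells. A part of the MCM4 level sat on short non-coding transcripts: the retained-intron transcript MCM4-213, of 354 bases, took 24.7 and 28.1% of the gene's TPM in the knockout and 27.4 and 26.4% in parental cells. The full-length MCM4-214, of 4105 bases, took 26.7 and 28.7% in the knockout and 33.8 and 32.6% in parental cells. By contrast MCM6-201, of 3736 bases, took 91.9 and 93.2% of MCM6 TPM in the knockout and 93.4 and 95.3% in parental cells. The MCM ratios thus set unlike mixes of transcripts against each other. How far short transcripts raised them was not tested. In TPM summed over all transcripts, the other named complexes were more even. Within GINS, the highest RNA exceeded the lowest 2.21 and 2.42 times in the knockout and 2.07 and 2.77 times in parental cells. RRM1 exceeded RRM2 1.39 and 1.61 times in the knockout and 1.32 and 1.21 times in parental cells.

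Origin licensing genes all had negative log2 fold changes under TMM scaling, none past the test, with a median of -0.05 over 6; with library size alone, ORC1, ORC2, ORC3 and CDC6 turned positive. CDT1, which brings MCM to the origin and is destroyed once S phase starts, had 54.3 and 57.2 CPM in the knockout and 65.6 and 70.9 CPM in parental cells. The knockout libraries were the lower pair, with a log2 fold change of -0.29 (SE 0.12, edgeR adjusted p = 0.341). ORC6, a subunit of the origin recognition complex, had 67.2 and 57.7 CPM in the knockout and 68.4 and 72.9 CPM in parental cells (-0.18). CDC6, the partner of CDT1 in loading, had 80.7 and 79.0 CPM in the knockout, between the parental values of 91.4 and 70.1 CPM. ORC1, the least abundant licensing gene per length, had 14.0 and 16.8 TPM in the knockout and 13.9 and 10.5 TPM in parental cells. Its CPM was 47.8 and 59.3 in the knockout and 57.4 and 54.4 in parental cells (log2 fold change -0.06, SE 0.15, adjusted p = 0.896). ORC2 had 73.1 and 85.0 CPM in the knockout and 86.9 and 76.1 CPM in parental cells (-0.05). ORC3 had 60.3 and 64.5 CPM in the knockout and 64.2 and 63.0 CPM in parental cells (-0.03), and both overlapped between the groups.

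Helicase activation genes gave 3 negative and 3 positive log2 fold changes, with GINS2 turning positive under library size alone. GINS4 (ENSG00000147536) had 58.9 and 56.2 CPM in the knockout and 75.2 and 71.6 CPM in parental cells. Replicates of a group differed by 0.07 on the log2 scale, and the groups by -0.35 (SE 0.12, fold 0.784, 95% interval 0.647 to 0.949, edgeR adjusted p = 0.247), so GINS4 had the smallest p of the 39 and still missed the threshold. GINS1 had 118 and 111 CPM in the knockout and 111 and 81.7 CPM in parental cells (0.24, SE 0.16, adjusted p = 0.546), and GINS3 had 37.2 and 35.8 CPM in the knockout and 38.4 and 24.2 CPM in parental cells (0.22, SE 0.21, adjusted p = 0.698). For both, only parental replicate 2 stood low. GINS2 had 54.7 and 49.8 CPM in the knockout and 56.5 and 48.7 CPM in parental cells (-0.01), with overlap. CDC45, which bridges MCM and GINS, had 56.1 and 59.8 CPM in the knockout and 66.3 and 70.5 CPM in parental cells, without overlap (-0.24, SE 0.12, adjusted p = 0.430). MCM10, needed to start unwinding, had 154 and 151 CPM in the knockout and 151 and 136 CPM in parental cells (0.09, SE 0.12, adjusted p = 0.788), and -0.30 with the length offset.

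The clamp PCNA was among the least changed genes. It had 204 and 190 CPM in the knockout and 206 and 185 CPM in parental cells, a fold of 1.01 (95% interval 0.834 to 1.22, edgeR adjusted p = 0.975). Per length it was the second most abundant of the 39, at 156 and 141 TPM in the knockout and 130 and 92.0 TPM in parental cells. Its loader subunits RFC3, at 124 and 122 CPM in the knockout and 141 and 143 CPM in parental cells (-0.21, SE 0.12, adjusted p = 0.467), and RFC4, at 38.1 and 35.4 CPM in the knockout and 41.0 and 41.5 CPM in parental cells (-0.17, SE 0.14, adjusted p = 0.637), lay below the parental libraries without overlap. The other subunits overlapped between the groups. RFC1 had 133 and 135 CPM in the knockout and 126 and 137 CPM in parental cells (0.03, or -0.0017 with the length offset), RFC2 had 50.1 and 41.3 CPM in the knockout and 49.0 and 51.9 CPM in parental cells (-0.14), and RFC5 had 86.6 and 79.7 CPM in the knockout and 91.9 and 79.0 CPM in parental cells (-0.04).

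Among polymerase and primase genes, POLD1, the catalytic subunit of polymerase delta at chr19:50384204-50418016, had 40.3 and 33.3 CPM in the knockout and 46.6 and 51.4 CPM in parental cells. The knockout libraries were the lower pair (-0.41, SE 0.15, fold 0.751, 95% interval 0.591 to 0.954, edgeR adjusted p = 0.274). POLE, its counterpart on the leading strand, had 159 and 135 CPM in the knockout and 163 and 156 CPM in parental cells, with overlap (-0.11). POLA2, the accessory subunit of polymerase alpha, had 67.2 and 60.1 CPM in the knockout and 75.4 and 72.5 CPM in parental cells (-0.22, SE 0.13, adjusted p = 0.483), without overlap. The catalytic POLA1 had 152 and 154 CPM in the knockout, between the parental 160 and 148 CPM (-0.01). The primase subunits differed in sign. PRIM2 had 52.0 and 59.1 CPM in the knockout and 48.0 and 49.3 CPM in parental cells (0.19) and was the only one of the 39 with both knockout libraries above both parental ones. PRIM1 had 48.7 and 54.1 CPM in the knockout and 49.3 and 62.2 CPM in parental cells (-0.12, SE 0.15, adjusted p = 0.783).

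LIG1, the ligase that seals lagging-strand fragments, at chr19:48115445-48170603, had the most negative value of the set. It had 39.5 and 35.8 CPM in the knockout and 44.7 and 59.1 CPM in parental cells, a fold of 0.727 (95% interval 0.559 to 0.947, SE 0.17 in log2, edgeR adjusted p = 0.269). The parental libraries were 0.40 apart on the log2 scale, close to the difference between groups of -0.46. FEN1, the flap nuclease of the same step, had 66.2 and 62.8 CPM in the knockout and 73.6 and 58.3 CPM in parental cells (-0.03). RPA1, a subunit of the protein that coats single-stranded DNA, had 107 and 102 CPM in the knockout, between the parental 114 and 90.7 CPM (0.03, SE 0.14, adjusted p = 0.953), and was at -0.19 with the length offset. RPA2, a second subunit, had 48.9 and 43.0 CPM in the knockout and 50.7 and 44.5 CPM in parental cells (-0.05, or 0.037 with the length offset), with overlap.

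In nucleotide supply, TYMS, thymidylate synthase, at chr18:657604-673578, had 57.7 and 53.7 CPM in the knockout and 78.7 and 63.0 CPM in parental cells. Parental replicate 1 was highest (-0.35, SE 0.14, fold 0.785, 95% interval 0.624 to 0.988, edgeR adjusted p = 0.327). The ribonucleotide reductase subunits were near 0: RRM1 had 289 and 264 CPM in the knockout and 277 and 255 CPM in parental cells (0.06, SE 0.12, adjusted p = 0.883). RRM2 had 188 and 147 CPM in the knockout and 197 and 157 CPM in parental cells (-0.08, SE 0.16, adjusted p = 0.871). Per length, CCNE2 was the lowest of the 39 genes in each library, at 8.25 and 6.14 TPM in the knockout and 9.46 and 5.93 TPM in parental cells. CCNE1 had 12.1 and 13.7 TPM in the knockout and 13.4 and 8.46 TPM in parental cells, near POLD1 and GINS3. CCNE1 had 17.1 and 19.3 CPM in the knockout and 26.1 and 19.5 CPM in parental cells (-0.33, SE 0.20, adjusted p = 0.503). CCNE2 had 19.4 and 18.8 CPM in the knockout and 28.1 and 16.4 CPM in parental cells (-0.23, SE 0.25, adjusted p = 0.726), the knockout lying between the parental replicates.

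Which genes passed depended on the parental library kept. In the fit without parental replicate 1, LIG1 (-0.65, edgeR adjusted p = 0.0038) and POLD1 (-0.49, adjusted p = 0.0373) were called lower, against 5.7% of all genes, and GINS1 (0.48, adjusted p = 0.0164) and GINS3 (0.59, adjusted p = 0.0241) higher, against 5.71%. Without parental replicate 2 the genes called lower were TYMS (-0.50, adjusted p = 0.00144), GINS4 (-0.39, adjusted p = 0.0178), MCM4 (-0.33, adjusted p = 0.0237) and CCNE2 (-0.56, adjusted p = 0.0322), against 4.94% of all genes. There were 0 called higher, against 4.33%. No gene was called in both fits. In these fits the single library of a group is assumed to vary like the libraries of the other group. The number of negative log2 fold changes was 20 without parental replicate 1 and 34 without parental replicate 2, and 30 and 21 without knockout replicate 1 and 2.

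**Figure D3:**
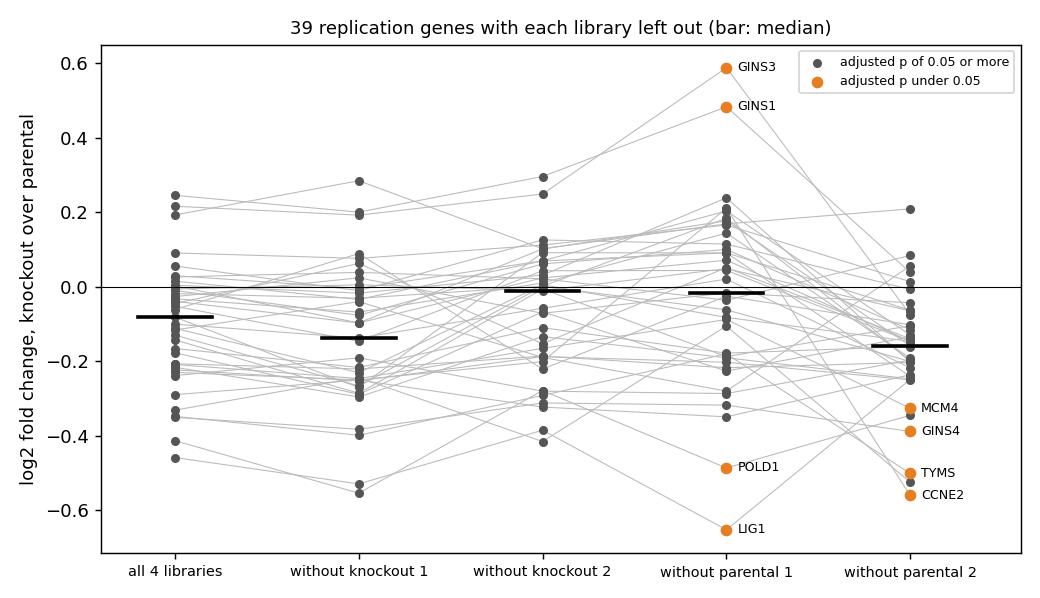
The log2 fold change (LARP7 knockout over parental, TMM scaling) of the 39 replication genes in the fit of all 4 libraries and with each library left out; grey lines join a gene, bars are medians and orange points have an edgeR adjusted p under 0.05. The 4 genes called without parental replicate 1 are not the 4 called without parental replicate 2.

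On the TPM scale the order of the groups differed from that of the counts. Mean TPM was higher in the knockout for 34 of the 39 genes, with both knockout libraries above both parental ones for 20 and below them for 1. Like counts in TPM were not made over all genes, so these counts say nothing particular to the replication genes. The median log2 ratio of mean TPM was 0.30 for these genes and 0.41 for all genes tested, so TPM was shifted upward in the knockout across the table, and it is used here to compare genes within a library. Small RNA, which shares the fixed TPM total, took up to 53.4% in parental replicate 2; its part in the result was not tested. As a share of protein-coding TPM the 39 genes took 0.419 and 0.406% in the knockout and 0.395 and 0.395% in parental cells. As a share of reads they took 0.448 and 0.433% in the knockout and 0.458 and 0.420% in parental cells.

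Transcript usage, the share of a gene's output that each of its transcripts takes, was tested for 30 of the 39 genes, and 0 changed. With edgeR's diffSpliceDGE and gene-level Simes p, 0.683% of 9517 genes passed, and 0 of the 30 reached an unadjusted p under 0.05. In 7 of the 30, 10 transcripts differed by at least 10 points of the gene's TPM without overlap between groups. That was 23.3% of the genes, against 39.1% of all genes tested for usage. All 39 genes together hold 339 annotated transcripts. CDT1-201, the coding transcript of 3240 bases, took 58.2 and 50.4% in the knockout and 38.3 and 37.2% in parental cells. The short CDT1-203, of 571 bases, took 0.0113 and 0% in the knockout and 19.4 and 10.1% in parental cells, on 55.0 and 22.8 estimated reads in parental cells. MCM10-202 took 40.3 and 39.3% in the knockout and 28.4 and 28.9% in parental cells, whereas the short MCM10-204 took 19.6 and 17.6% in the knockout and 41.4 and 28.4% in parental cells. PRIM1-201 took 69.4 and 51.1% in the knockout and 51.0 and 44.9% in parental cells, so that knockout replicate 2 and parental replicate 1 nearly touched.

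The other shares rested on few reads or on parental libraries that disagreed. CDC45-206 took 11.5 and 17.3% in the knockout and 53.7 and 18.9% in parental cells, and CDC45-209 took 50.5 and 41.8% in the knockout and 5.89 and 34.2% in parental cells. RFC4-205 took 12.1 and 13.2% in the knockout and 20.6 and 33.9% in parental cells. CCNE1-206 took 3.79 and 2.77% in the knockout and 11.7 and 22.5% in parental cells, and the retained-intron RPA1-206 took 34.0 and 28.7% in the knockout and 36.4 and 50.5% in parental cells. Over all 39 genes, retained-intron transcripts took 23.5 and 23.8% of TPM in the knockout and 23.2 and 24.6% in parental cells. Transcripts marked for nonsense-mediated decay took 6.12 and 5.26% in the knockout and 5.18 and 6.35% in parental cells, so neither class separated the groups.

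**Figure D4:**
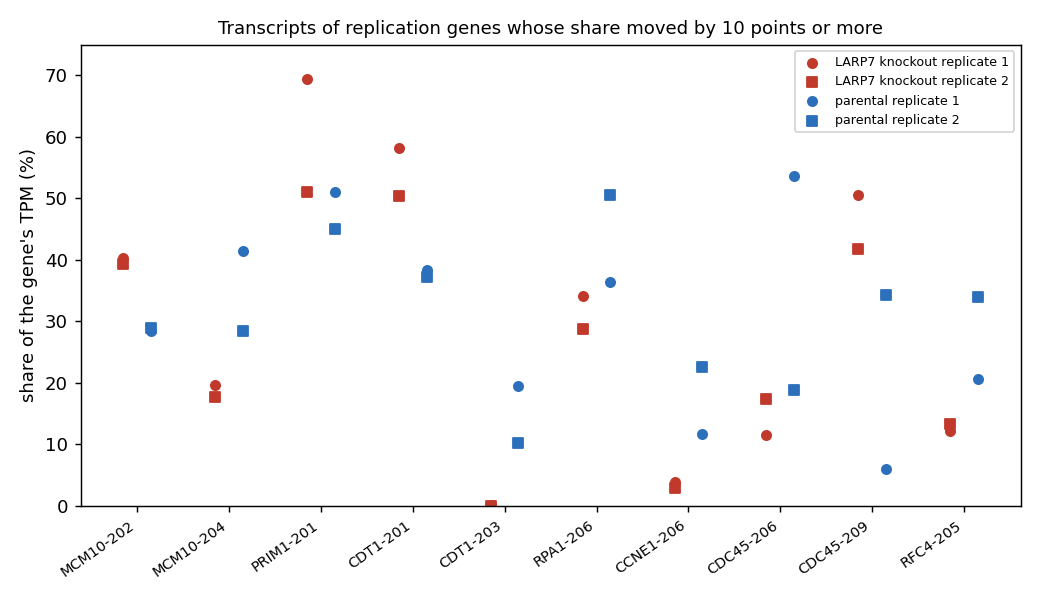
Share of the gene's TPM (%) taken by the 10 transcripts of replication genes that differed by at least 10 points without overlap, LARP7 knockout libraries in red left of parental libraries in blue. None of these genes passed the usage test, and the parental replicates of CDC45-206 stand at 53.7 and 18.9%.

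Reads of some genes cannot be told apart from those of overlapping genes. For overlap on the opposite strand this is because the strand setting is not given in the sources used here. For overlap on the same strand that setting would not separate them. Exons of 18 of the 39 genes overlap another gene, 15 on the opposite strand and 5 on the same strand, and 21 are free of overlap. On the opposite strand the overlap covers 46.6% of TYMS exon bases (with ENOSF1 and TYMSOS) and 37.1% of CCNE2 (with INTS8 among others). It also covers 23.6% of MCM2 and 23.6% of GINS4 there. On the same strand it covers 35.1% of POLA2 and 20.2% of RRM2. CDT1 has none and LIG1 2.72%. The 14 processed pseudogenes named for these genes held at most 11 reads in a library. Within 10 Mb on either side, the median log2 fold change of expressed protein-coding neighbours ran from -0.20 (CCNE2) to 0.27 (RFC1). Of the 39 genes, 33 lay below their neighbours' median under TMM scaling. The same count was not made for other genes, so it is a description only.

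Genes of the same and of adjoining steps were read from the same fit. Of 34 other replication genes 0 passed edgeR, and 1 was called with DESeq2. The median was -0.05 with 19 negative under TMM scaling, and 0.05 with 14 negative under library size alone. That gene, MCM9, a helicase of DNA repair related to the MCM ring, had 96.1 and 85.0 CPM in the knockout and 67.2 and 50.4 CPM in parental cells (0.62, edgeR adjusted p = 0.142, DESeq2 adjusted p = 0.0448). TOP2A, the topoisomerase that untangles replicated chromosomes, had 529 and 537 CPM in the knockout and 384 and 419 CPM in parental cells (0.41, edgeR adjusted p = 0.150). RECQL4, a helicase that takes part in origin firing, had 35.9 and 41.1 CPM in the knockout and 52.8 and 55.5 CPM in parental cells (-0.49, edgeR adjusted p = 0.167).

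Of 17 other nucleotide supply genes 13 were negative, with a median of -0.15, or 11 with a median of -0.06 under library size alone, and 0 passed edgeR. GART, a purine synthesis enzyme, had 223 and 226 CPM in the knockout and 299 and 330 CPM in parental cells (-0.49, edgeR adjusted p = 0.121, DESeq2 adjusted p = 0.0210). DUT, which keeps uracil out of DNA, had 31.8 and 31.7 CPM in the knockout and 50.4 and 45.1 CPM in parental cells (-0.59, edgeR adjusted p = 0.121). For each, the knockout libraries were below both parental ones, as for TYMS.

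Of 25 genes of G1-S control 0 passed, and 12 were negative with a median of 0.01, or 8 with a median of 0.10 under library size alone. Cyclin D1 (CCND1) had 86.3 and 89.4 CPM in the knockout and 69.4 and 49.5 CPM in parental cells (0.56, edgeR adjusted p = 0.183). The kinase inhibitor CDKN1B was at 0.45 (adjusted p = 0.268) and E2F3 at -0.35 (adjusted p = 0.280). Of 11 genes of replication-coupled chromatin 6 were negative and 0 passed edgeR. CHAF1B, a subunit of the histone chaperone that follows PCNA, had 53.6 and 44.2 CPM in the knockout and 77.7 and 78.6 CPM in parental cells (-0.68, edgeR adjusted p = 0.0708, DESeq2 adjusted p = 0.0116). ASF1B was at -0.48 (edgeR adjusted p = 0.280) and DNMT1 at -0.30 (edgeR adjusted p = 0.311). Of 71 replication-dependent histone genes 52 were tested, with a median of -0.08, or 0.0095 under library size alone. A histone H3 gene, HIST1H3F, passed edgeR as lower, with no reads in the knockout and 10.8 and 9.05 CPM in parental cells (edgeR adjusted p = 0.00201). DESeq2 called 2 more as lower, HIST1H1D (-0.95, edgeR adjusted p = 0.0530, DESeq2 adjusted p = 0.00596) and HIST2H2AA3 (-0.61, edgeR adjusted p = 0.0630, DESeq2 adjusted p = 0.00881). The similarly named HIST2H2AA4 went the other way at a higher level. It had 608 and 504 CPM in the knockout and 475 and 390 CPM in parental cells (0.36, edgeR adjusted p = 0.298). How reads were shared between HIST2H2AA3 and HIST2H2AA4 was not tested.

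Of 22 mitotic genes 0 passed. Their median was 0.26, or 0.36 under library size alone, and 20 were positive. Both knockout libraries were above both parental ones for 15 of the 22, against 23.5% of all genes, and below them for 1, against 22.7%. KIF20A, a cytokinesis kinesin, had 88.9 and 90.2 CPM in the knockout and 71.0 and 59.9 CPM in parental cells (0.45, edgeR adjusted p = 0.177). TTK, a spindle checkpoint kinase, had 140 and 123 CPM in the knockout and 103 and 92.1 CPM in parental cells (0.43, edgeR adjusted p = 0.186). CENPE, a kinetochore motor, had 283 and 292 CPM in the knockout and 208 and 239 CPM in parental cells (0.37, edgeR adjusted p = 0.229). The number of positive mitotic genes was 16 without parental replicate 2 and 22 with library size alone.

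**Figure D5:**
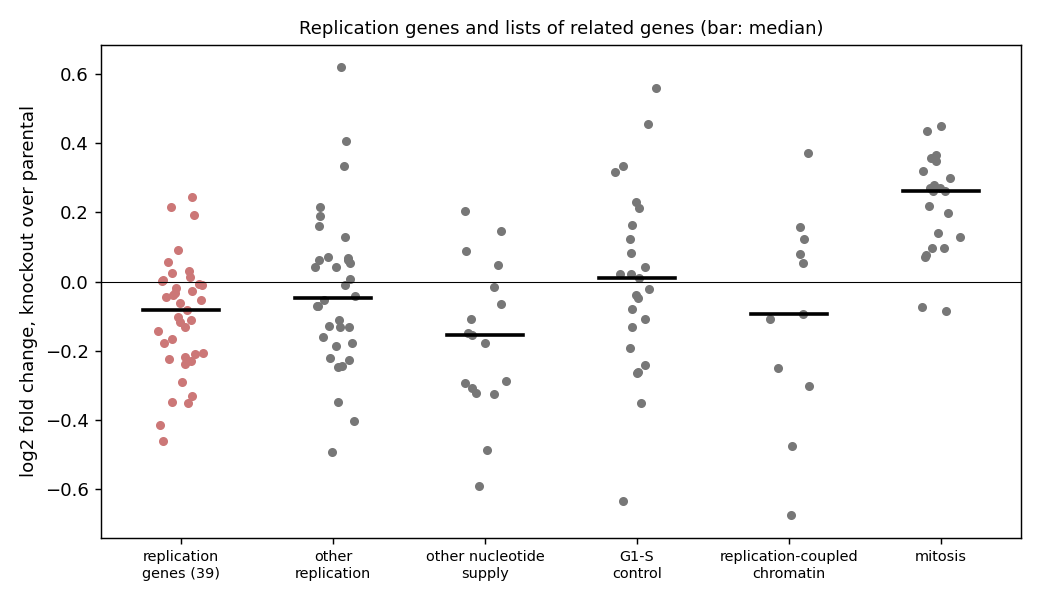
The log2 fold change (LARP7 knockout over parental, TMM scaling) of each replication gene (red) and of each tested gene of 5 related lists (grey), with bars at the medians. The medians run from -0.15 for other nucleotide supply genes to 0.26 for mitotic genes, and from -0.06 to 0.36 for the same lists with library size alone, where the replication genes are at 0.01.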

How the data were processed

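Total RNA of 2 LARP7 knockout and 2 parental libraries was analysed from the authors' Salmon tables. Per the file headers, the deposited tables give estimated counts, TPM and effective length per transcript. Per the submitters' processing notes, the build was hg38 and the tools included Salmon 1.6, edgeR 3.24.3, STAR 2.5.3a and cutadapt 1.6; neither the annotation release nor the strandedness is given in the sources used here. Effective length, as deposited by the authors, served for an offset only. The median of transcript length minus effective length, over long transcripts only, was 232.9 and 225.8 bases in the knockout and 217.0 and 206.7 in parental cells.

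Of 198002 transcripts, 197318 matched GENCODE v29 (GRCh38); the other 684 held 0.0631 to 0.0711% of reads. Estimated counts were summed per gene, rounded and tested with edgeR 4.0.16 (filterByExpr, TMM, quasi-likelihood F test, Benjamini-Hochberg over 18484 genes) in R 4.3.3. Standard errors were taken as log2 fold change divided by the square root of F. Intervals use the fit's degrees of freedom. Salmon's assignment error is not seen by these tests. Usage was tested over transcripts with at least 10 reads and 5% of the gene in 2 libraries. Alternatives used DESeq2 1.42.0, limma 3.58.1 voom, other scalings, filters, leaving out each library and a replicate block. Steps were tested on simulated data.

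The genes and lists were chosen with earlier results of these data known. Named in full are the 10 genes with the smallest p, the 5 highest and 5 lowest in TPM, those with moved transcript shares and up to 3 per list, of which some are not reported here; others were named after their values were seen.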

Additional observations from a re-analysis of the deposited data

How the results depend on the processing

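The replicate block called 3 of the 39 genes lower, GINS4 (-0.35, edgeR adjusted p = 0.0465), LIG1 (-0.45, 0.0266) and POLD1 (-0.42, 0.0448), against 888 of 18484 genes (4.8%), and 0 higher, against 768 (4.15%). The labels do not pair the libraries, and with 2 pairs the deviations of same-numbered libraries correlated at 0.187 over 18484 genes. Leaving out each library gave 0 to 4 genes lower, 0 to 2 higher and medians of -0.16 to -0.01. With library size alone the median was 0.011. The count of negative genes, an alternative chosen after seeing the data, was 27 to 33 under the other scalings and filters and 19 with library size alone; the cause was not tested. Usage gave 0 changed genes under all 8 alternatives run, which called 0 to 115 of all genes. Of 546 values of single genes under 14 alternatives, 475 kept sign and side of the threshold, 11 passed it newly and 60 turned sign; 15 genes kept their sign throughout.

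With library size alone, the values that turned sign were ORC1 0.033, ORC2 0.050, ORC3 0.066, CDC6 0.076, GINS2 0.083, RFC5 0.054, POLA1 0.087, FEN1 0.061, RPA2 0.040 and RRM2 0.011. With the effective length offset, the values that turned sign were MCM4 0.010, MCM5 0.072, MCM10 -0.30, RFC1 -0.0017, RPA1 -0.19 and RPA2 0.037. With protein-coding genes only, the values that turned sign were MCM2 -0.025, MCM6 -0.022, PCNA -0.014 and RFC1 -0.0046. With RLE factors, the values that turned sign were MCM2 -0.0036 and MCM6 -0.0018. Without a filter, the values that turned sign were GINS2 0.0011 and POLA1 0.0053. With at least 50 reads in 2 libraries, 1 value turned sign, MCM2 -0.0017.

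With single libraries left out, the values that turned ran for MCM2 from -0.16 to 0.18, MCM5 -0.27 to 0.00060, MCM6 -0.20 to 0.24, MCM7 -0.22 to 0.020, ORC1 -0.22 to 0.089, ORC2 -0.15 to 0.062, ORC3 -0.072 to 0.023 and CDC6 -0.20 to 0.18. They ran for GINS2 from -0.12 to 0.10, GINS3 -0.075 to 0.59, PCNA -0.064 to 0.090, RFC1 -0.037 to 0.083, RFC5 -0.15 to 0.071, POLA1 -0.065 to 0.048, PRIM1 -0.28 to 0.056 and POLE -0.23 to 0.0047. They also ran for FEN1 from -0.19 to 0.14, RPA1 -0.13 to 0.20, RPA2 -0.15 to 0.043, RRM1 -0.011 to 0.13, RRM2 -0.27 to 0.091 and CCNE2 -0.56 to 0.21.

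Precision is limited by 2 libraries a group, with 12851942 reads in the shallowest.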
